A study of Mus musculus with 4 samples.

Results

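To describe DNA replication and mitosis genes in lens epithelia after UVB irradiation, 44 genes were chosen by symbol, from the licensing of replication origins to the mitotic spindle. Of these, 43 had at least 1 probe set of their own on the array, out of 19938 such genes in all, and where a gene had several probe sets the one with the highest mean signal was used. No probe set was assigned to Ccnb1 in the annotation used, so that the signal of cyclin B1 was not analysed here. The genes were taken in 3 classes, namely 14 replication genes, 9 genes of G1 and of entry into S phase, and 20 measured genes of G2 and mitosis.

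The irradiated samples were lens epithelia of right eyes of 8-week-old male C57BL/6 mice, which were exposed to UVB at 30 mJ/cm2 under anesthesia. The controls were left eyes of the same mice, also anesthetized, which foil had shielded from the lamp. Eyes were taken 1 day later, other tissues, cortex and nucleus were dissected away, and RNA of the lens epithelium was hybridized. Each of 2 independent experiments gave 1 UVB array and 1 control array. The methods give 3 mice for animal experiments, without saying whether an array held pooled mice. Beyond the experiment number, no source ties arrays to animals, so p-values measure only the spread between these 4 arrays, which may be technical. Signals are log2 values in arbitrary units, and a difference of UVB minus control is given on the log2 scale. In every probe set the summed signals of the 2 experiments were equal within 0.01, so the experiments had been set to a common mean before deposit. Within a gene, the UVB arrays therefore deviate from their mean as far as the control arrays do, in the opposite direction.

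In the cell cycle, D cyclins with Cdk4 and Cdk6, and then E cyclins with Cdk2, release E2F factors from the retinoblastoma protein. E2F factors switch on genes that load the MCM helicase at origins, copy DNA and supply nucleotides. Genes of G2 and mitosis follow later, through the DREAM and B-Myb-MuvB complexes and Foxm1, and their products condense chromosomes, build the spindle and divide the cell. In the lens, most cells of the central epithelium rest, while cells of the germinative zone near the equator divide and supply new fiber cells. UV damage to DNA is known to halt the cycle in many cell types, in part through p53 and the Cdk inhibitor p21.

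The choice by symbol did not use promoter sequence, which is described here by class. Promoter windows of RefSeq (GRCm38.p6), 250 bases before to 50 after the start of transcription, were at hand for 35 of the 44 genes, in 37 windows. Ccnb1, which has no signal here, was among these genes. They were searched on both strands for the E2F motif in 4 versions (TTTCCCGC, TTTGGCGC, TTTCGCGC and TTTGCCGC), for the cell cycle gene homology region or CHR (TTTGAA), to which DREAM and MuvB complexes bind, and for the CCAAT box (CCAAT). The E2F motif was found in 6 of 14 windows of replication genes (42.9%), in 1 of 16 of mitosis genes (6.25%) and in 2.26% of all 32851 windows. The CHR was found in 11 of 16 windows of mitosis genes (68.8%), in 2 of 14 of replication genes (14.3%) and in 17.9% of all windows. CCAAT boxes were common in both classes, in 87.5% of the mitosis windows and 78.6% of the replication windows, against 37.4% of all windows. All 11 mitosis windows with a CHR also held a CCAAT box, a pair found in 6.95% of all windows. Among other replication genes, the E2F motif was found in 12 of 44 windows (27.3%), and among other mitosis genes the CHR in 38 of 62 (61.3%). A match is a description of these letters and no measure of binding.

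The windows of 4 genes are printed, to show a pair of MCM genes with E2F motifs and no CHR, and a pair of mitotic genes with a CHR. Letters in capitals are matches to the 3 motifs on either strand, and touching or overlapping matches run together. The first is chr8:75109259-75109558, plus strand, the second chr1:128359656-128359955, minus strand, the third chr9:70421505-70421804, minus strand and the fourth chr10:69352863-69353162, minus strand.
Mcm5: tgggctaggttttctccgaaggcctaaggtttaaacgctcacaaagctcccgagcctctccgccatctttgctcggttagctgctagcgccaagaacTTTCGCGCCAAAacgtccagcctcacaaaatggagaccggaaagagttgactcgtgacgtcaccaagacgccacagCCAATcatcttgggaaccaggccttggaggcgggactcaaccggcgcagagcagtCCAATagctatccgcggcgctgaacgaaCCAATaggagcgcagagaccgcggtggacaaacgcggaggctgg
Mcm6: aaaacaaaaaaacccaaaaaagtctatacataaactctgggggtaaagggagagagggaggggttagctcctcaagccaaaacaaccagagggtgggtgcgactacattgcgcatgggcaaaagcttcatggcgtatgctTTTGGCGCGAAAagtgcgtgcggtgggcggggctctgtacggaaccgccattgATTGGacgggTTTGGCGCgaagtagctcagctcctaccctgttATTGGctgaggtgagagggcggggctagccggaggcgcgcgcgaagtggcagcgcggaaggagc
Ccnb2: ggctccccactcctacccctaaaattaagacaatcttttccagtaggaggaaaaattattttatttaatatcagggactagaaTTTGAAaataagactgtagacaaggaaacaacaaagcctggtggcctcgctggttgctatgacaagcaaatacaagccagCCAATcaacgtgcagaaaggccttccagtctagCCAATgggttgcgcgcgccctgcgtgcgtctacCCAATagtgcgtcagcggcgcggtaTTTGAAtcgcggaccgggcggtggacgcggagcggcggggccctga
Cdk1: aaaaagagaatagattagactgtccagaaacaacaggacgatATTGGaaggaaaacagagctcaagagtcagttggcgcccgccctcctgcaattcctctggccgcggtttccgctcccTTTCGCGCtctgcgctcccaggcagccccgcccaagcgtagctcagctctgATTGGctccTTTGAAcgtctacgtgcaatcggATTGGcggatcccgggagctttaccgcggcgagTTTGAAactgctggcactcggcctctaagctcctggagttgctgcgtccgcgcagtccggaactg

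In Mcm5 a pair of E2F matches on opposite strands overlaps at 153 and 149 bases before the start, and Mcm6 has such a pair at 110 and 106 bases before it and another match at 47 bases before it. In Ccnb2 a CHR begins 4 bases after the start, with CCAAT boxes 87, 54 and 21 bases before it. In Cdk1 a CHR begins 15 bases before the start, with CCAAT boxes on the other strand 80 and 48 bases before it, and Cdk1 is also the 1 mitosis gene whose window held an E2F match. Mcm5 and Mcm6 hold CCAAT boxes as well.

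The UVB differences of the 43 genes were small, and none came near the 1.8-fold change that served as threshold in the study. The differences ran between -0.28 for Cdc45, a factor of the replicative helicase, and 0.11 for Ccne2, which encodes cyclin E2. Of the 43 genes, 42 lay within 0.2 of 0 (97.7%), against 88.7% of all 28944 probe sets and 92.8% of those above the median level. Within 0.1 of 0 the shares were 67.4%, 63.5% and 71.9%, in the same order. The median absolute difference was 0.070 both in the 43 genes and in all probe sets. The median difference was -0.070, with -0.080 in experiment 1 and -0.070 in experiment 2, whereas all probe sets had a median of -0.020. On the means of both experiments, 33 genes were below 0 (76.7%), against 56.7% of all probe sets. At 1.8-fold and an unadjusted p of 0.01 in limma, 0 genes passed as higher and 0 as lower. The same rule called 0.111% of all probe sets as higher and 0 as lower.

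**Figure D1:**
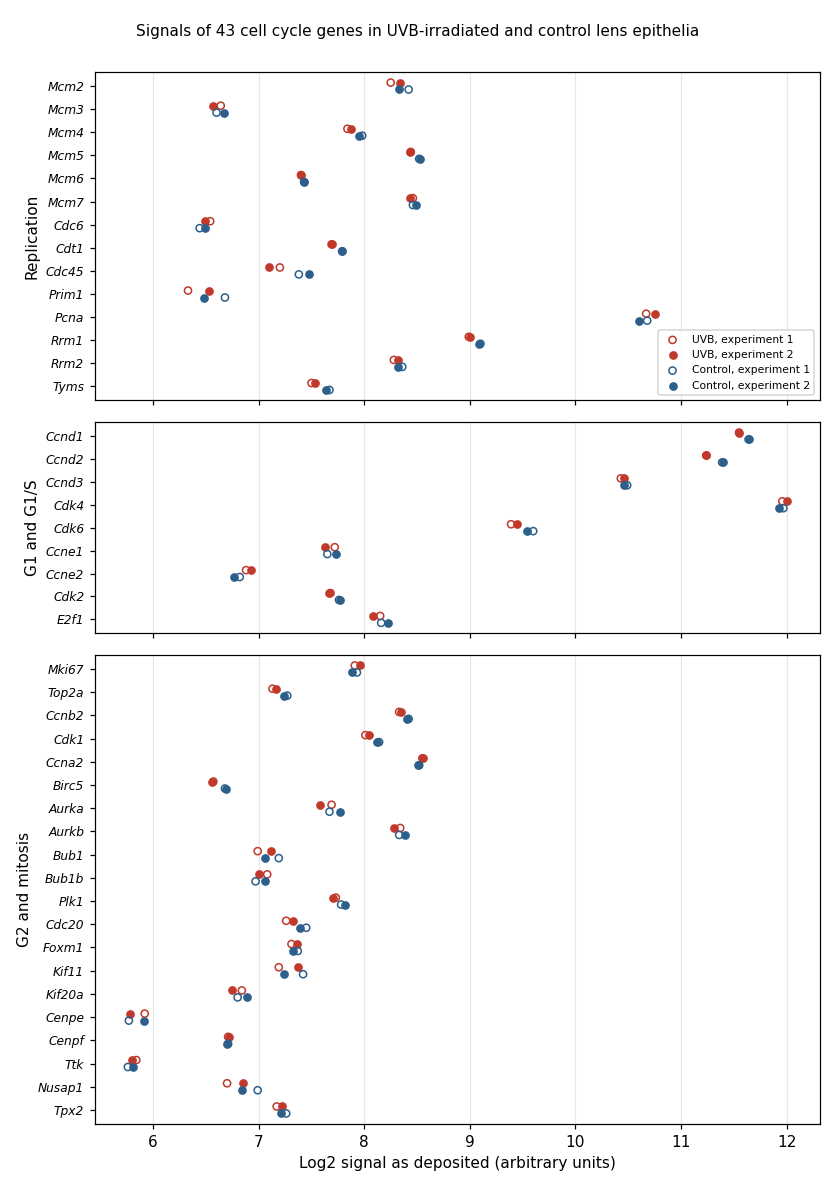
Log2 signals (horizontal axis, arbitrary units) of the 43 measured genes on each array, in rows by class. Red circles are UVB-irradiated and blue circles control epithelia, open for experiment 1 and filled for experiment 2, and equal values cover each other. The signals span 5.76 to 12.0, and the UVB and control arrays of a gene lie close together beside that span.

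With a limma threshold of 0.05 on the adjusted p, 8 of the 43 genes passed as lower after UVB (18.6%) and 0 as higher. Over all probe sets, 11.0% passed as lower and 6.62% as higher by this rule. Scaling moved this background, since 4921 probe sets were lower and 1803 higher with arrays centred on the median, and 2169 lower and 2348 higher with equal 75th percentiles, against 3184 and 1915 as deposited. The 8 genes were Mcm5, Cdt1, Rrm1 and Tyms of replication, Ccnd1, Ccnd2 and Cdk2 of G1 and S phase entry, and Birc5 of mitosis. Their folds of UVB over control lay between 0.898 and 0.940, their adjusted p between 0.0215 and 0.0432. Their 2 experiments differed by at most 0.06, where the values were deposited in steps of 0.01. When the eyes of an experiment were paired by a block, 0 of the 8 were called (adjusted p between 0.357 and 0.361), nor was any probe set. Unless the block is named, standard errors and adjusted p of single genes below come from fits without it. The fit without the block counts 2 residual degrees of freedom where the common mean leaves 1, so its standard errors are too small. At an unadjusted p of 0.05 in the fit with the block, 3 genes were lower (Tyms, Ccnd2 and Birc5) and 0 higher, against 7.71% and 5.69% of all probe sets. Without any 1 of the 4 arrays, 0 of the 8 genes and 0 of all probe sets were called. In each of the 8, both UVB arrays lay below both control arrays, so leaving out 1 array could not turn the sign. Cdt1 was at -0.10 in each such fit and Ccnd2 between -0.16 and -0.15.

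Whether the groups overlapped was also counted. Both UVB arrays lay below both control arrays in 18 genes (41.9%), and above them in 2 genes, Ccne2 and Ccna2 (4.65%). Over all probe sets, 37.4% lay wholly below and 24.0% wholly above. Because the experiments share a mean, this separation is the same as a difference of one sign in both experiments. In 18 genes the experiments had opposite signs, and in 5 the difference was 0 in 1 experiment. Across the 43 genes the differences of experiments 1 and 2 had a correlation of -0.00238, against 0.472 across all probe sets, as a description of these arrays. For a single gene, the smallest exact permutation p that this design allows is 0.333.

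**Figure D2:**
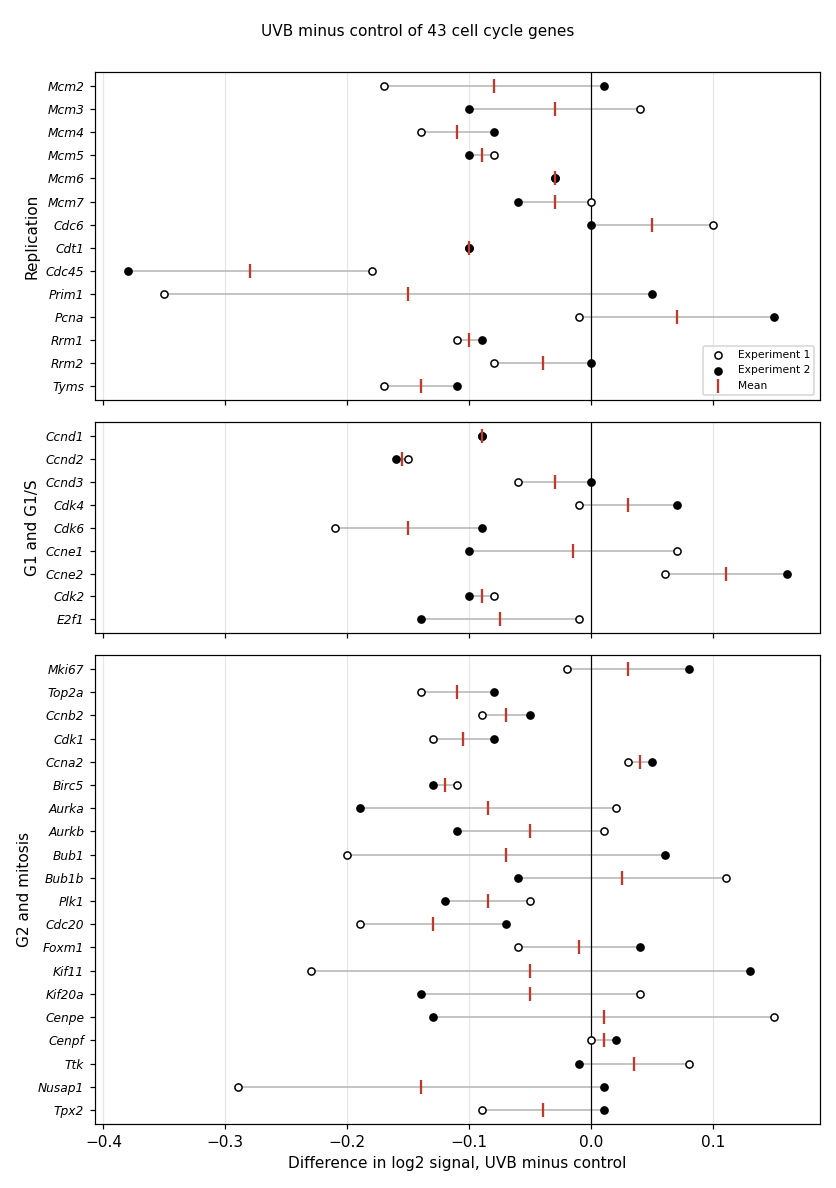
Difference in log2 signal, UVB minus control (horizontal axis), of each of the 43 genes in rows by class. Experiment 1 is shown by open and experiment 2 by filled circles, and red bars are their mean; Prim1, Kif11 and Nusap1 have the widest gaps between experiments, 0.40, 0.36 and 0.30.

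The intervals show how closely these arrays place a difference. With the block, the 95% interval of the difference stayed within 1.8-fold for all 43 genes, and within 0.5 of 0 for 39. The other 4 were Cdc45, Prim1, Kif11 and Nusap1. For the median gene, the interval reached 0.173 to either side of the difference with the block and 0.101 without it. A difference smaller than its width has an interval that includes 0. These intervals are not adjusted for the number of probe sets, so the widths are no limit of detection by adjusted p. In the limma fit with the block the lowest adjusted p of any probe set was 0.357, whatever its difference.

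The replicative helicase is loaded in G1 by Cdc6 and Cdt1, which bring the MCM complex to origins, and is switched on when Cdc45 joins it. Cdt1 had signals of 7.69 and 7.69 in UVB epithelia (experiments 1 and 2), against 7.79 and 7.79 in controls. Its 2 UVB arrays were thus both below its controls, by the same amount, with a log2 difference of -0.10 (standard error 0.0079, adjusted p = 0.0238). With the block, the standard error of Cdt1 was 0.0273 and its adjusted p 0.357. Cdc6, in contrast, was at 6.54 and 6.49 after UVB and at 6.44 and 6.49 in controls, so that the groups touched at 6.49. Its difference of 0.050 (standard error 0.0307) did not pass the test. Cdc45 had the largest mean difference of the 43 genes. Its signals were 7.20 and 7.10 after UVB, against 7.38 and 7.48 in controls, a difference of -0.18 in experiment 1 and -0.38 in experiment 2. The groups did not overlap, but the experiments differed by more than those of the called genes, and Cdc45 missed the threshold (mean -0.28, standard error 0.0599, adjusted p = 0.0775).

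Among the 6 subunits of the MCM helicase, Mcm5 alone was called, and the other five missed the threshold. Mcm5 had 8.44 and 8.43 after UVB, against 8.52 and 8.53 in controls. Both UVB arrays were lower, with a log2 difference of -0.090 (standard error 0.00988, adjusted p = 0.0321). Mcm5 missed the threshold with quantile normalization (adjusted p = 0.0595), with equal 75th percentiles on the arrays (0.0746) and with a robust prior (0.0545). Mcm4 and Mcm6 were also separated, with mean differences of -0.11 (adjusted p = 0.0598) and -0.030 (0.104). Mcm6 passed when probe sets above the median level alone were tested (adjusted p = 0.0465). Mcm2 was at -0.17 in experiment 1 and 0.01 in experiment 2, Mcm3 at 0.04 and -0.10, and Mcm7 at 0 and -0.06, so that their groups met or overlapped. That Mcm5 differed from the other subunits was not tested.

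Primase and PCNA act at the fork, where Prim1 is the catalytic subunit that starts new strands and Pcna the sliding clamp of the polymerases. Prim1 had signals of 6.33 and 6.53 after UVB, against 6.68 and 6.48 in controls. It had the widest gap of the 43 genes between experiments, with a difference of -0.35 in experiment 1 and 0.05 in experiment 2 (mean -0.15, standard error 0.119, adjusted p = 0.431). Pcna was at 10.67 and 10.75 after UVB and at 10.68 and 10.60 in controls. Its groups overlapped, at -0.01 in experiment 1 and 0.15 in experiment 2, and the mean difference of 0.070 (standard error 0.0482) had a 95% interval of -0.172 to 0.312 with the block. A second probe set annotated to Pcna had the same 4 signals within 0.01. Mice carry Pcna pseudogenes, and near-identical copies cannot be told apart by such probe sets.

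Of the nucleotide enzymes, both the large subunit of ribonucleotide reductase and thymidylate synthase were called. Rrm1 had 8.99 and 9.0 after UVB, against 9.10 and 9.09 in controls, and the difference was -0.10 (standard error 0.00988, adjusted p = 0.0287). Tyms, which makes thymidylate, had 7.5 and 7.53 after UVB, against 7.67 and 7.64 in controls. Its UVB arrays were both lower, with a difference of -0.14 (standard error 0.0195, adjusted p = 0.0432), and Tyms was the one replication gene among the 3 that reached an unadjusted p of 0.05 with the block (0.0468). Rrm2, the small subunit that cycles with S phase, had differences of -0.08 and 0 and was not called (mean -0.040, adjusted p = 0.335).

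The D cyclins and their kinases had signals high on these arrays, with 5 of the 9 genes of this class above the 75th percentile of the array. Ccnd2, for cyclin D2, had 11.24 and 11.24 after UVB, against 11.39 and 11.40 in controls. The difference was -0.155 (standard error 0.00894, adjusted p = 0.0215), which is 0.898-fold, the lowest fold among the called genes. With the block its unadjusted p was 0.0247 and its interval ran between -0.265 and -0.0455. Ccnd1, for cyclin D1, had 11.55 on both UVB arrays, against 11.64 on both control arrays, a difference of -0.090 (standard error 0.0079, adjusted p = 0.0263). Ccnd1 missed the threshold with quantile normalization (adjusted p = 0.0613). Ccnd3 was at 10.43 and 10.46 after UVB and at 10.49 and 10.46 in controls, so that its groups met, and its difference of -0.030 was not called. Of the kinases that D cyclins bind, Cdk6 had 9.39 and 9.45 after UVB against 9.60 and 9.54 in controls, and Cdk4 11.96 and 12.00 against 11.97 and 11.93. Cdk6 did not overlap (-0.15, adjusted p = 0.0945), whereas Cdk4 overlapped (0.030, adjusted p = 0.448).

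For entry into S phase, Cdk2 was lower and the E cyclins were not called. Cdk2 had 7.68 and 7.67 after UVB, against 7.76 and 7.77 in controls, a difference of -0.090 (standard error 0.00988, adjusted p = 0.0321). It missed the threshold with equal 75th percentiles (0.0746) and with a robust prior (0.0545). Ccne2 had 6.88 and 6.93 after UVB, against 6.82 and 6.77 in controls, and both UVB arrays were higher (0.11, standard error 0.0307, adjusted p = 0.114). Ccne1 was at 0.07 in experiment 1 and -0.10 in experiment 2. E2f1, the activator of S phase genes, was at -0.01 and -0.14, with a mean of -0.075 (adjusted p = 0.269).

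Among the genes of G2 and mitosis, Birc5 was the 1 gene called of 20 measured (5.0%). Birc5, which encodes survivin of the chromosomal passenger complex, had 6.57 and 6.56 after UVB, against 6.68 and 6.69 in controls. The difference was -0.12 (standard error 0.00988, adjusted p = 0.0250), and the unadjusted p with the block was 0.0436. Aurkb, the kinase of the same complex, had 8.34 and 8.28 after UVB and 8.33 and 8.39 in controls, so its groups overlapped (-0.050, adjusted p = 0.396).

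Mki67, whose protein Ki-67 coats mitotic chromosomes and marks dividing cells, had 7.91 and 7.96 after UVB and 7.93 and 7.88 in controls. The groups overlapped, the difference was 0.030 (standard error 0.0307, adjusted p = 0.525), and its 95% interval with the block ran between -0.143 and 0.203. Top2a, the topoisomerase that untangles chromosomes, had 7.13 and 7.16 after UVB, against 7.27 and 7.24 in controls. The difference was -0.11 (adjusted p = 0.0598). A second probe set of Top2a, at signals between 2.84 and 3.25 near the bottom of the arrays, had a difference of 0.41 in experiment 1 and -0.01 in experiment 2, so that the mean of both probe sets was at 0.045.

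The mitotic kinase Cdk1 and its cyclins lay near the threshold or on either side of 0. Cdk1 had 8.01 and 8.04 after UVB, against 8.14 and 8.12 in controls (-0.105, standard error 0.0171, adjusted p = 0.0520). It passed under 6 of the other settings, with adjusted p between 0.0442 and 0.0494. Ccnb2, for cyclin B2, had a difference of -0.070 (adjusted p = 0.0705), with both UVB arrays lower. Ccna2, for cyclin A2, had 8.55 and 8.56 after UVB, against 8.52 and 8.51 in controls. Both UVB arrays were higher, by a mean of 0.040 (adjusted p = 0.0948). Plk1 and Cdc20, a mitotic kinase and an activator of the anaphase-promoting complex, were also separated, at -0.085 (adjusted p = 0.104) and -0.13 (0.115).

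The remaining mitosis genes varied more between the experiments than between the groups. Kif11, the spindle motor Eg5, had 7.19 and 7.37 after UVB, against 7.42 and 7.24 in controls, a difference of -0.23 in experiment 1 and 0.13 in experiment 2. Nusap1, a spindle-associated protein, had 6.70 and 6.85 after UVB, against 6.99 and 6.84 in controls, or -0.29 and 0.01. The checkpoint genes Bub1 (-0.20 and 0.06), Bub1b (0.11 and -0.06) and Ttk (0.08 and -0.01) had opposite signs in the experiments. So had Aurka (0.02 and -0.19), Foxm1 (-0.06 and 0.04), Kif20a (0.04 and -0.14), Cenpe (0.15 and -0.13) and Tpx2 (-0.09 and 0.01). Cenpf, a kinetochore protein, was at 0 and 0.02. The mean signals of Cenpe and Ttk lay below the 25th percentile of the arrays.

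Replication genes and mitosis genes were then set side by side. The median difference was -0.085 over the 14 replication genes (-0.090 in experiment 1 and -0.070 in experiment 2). It was -0.050 over the 20 mitosis genes (-0.055 in each experiment) and -0.075 over the 9 genes of G1 and S phase entry (-0.060 and -0.090). The replication median was thus 0.035 below the mitosis median in the means, and it differed by -0.035 in experiment 1 and -0.015 in experiment 2. This order did not hold in every fit. Without the UVB array or without the control array of experiment 1, replication was at -0.058 and mitosis at -0.060. With quantile normalization they were at -0.073 and -0.062. For comparison, a single gene of the 43 differed between its experiments by a median of 0.10. As called genes, 4 of 14 replication genes were lower (28.6%), 3 of 9 genes of G1 and S phase entry (33.3%) and 1 of 20 mitosis genes (5.0%), beside 11.0% of all probe sets. No test was made between the classes. Of the 4 genes whose promoters are printed, Mcm5 was called and Mcm6, Ccnb2 and Cdk1 were not, although both UVB arrays were lower in each.

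**Figure D3:**
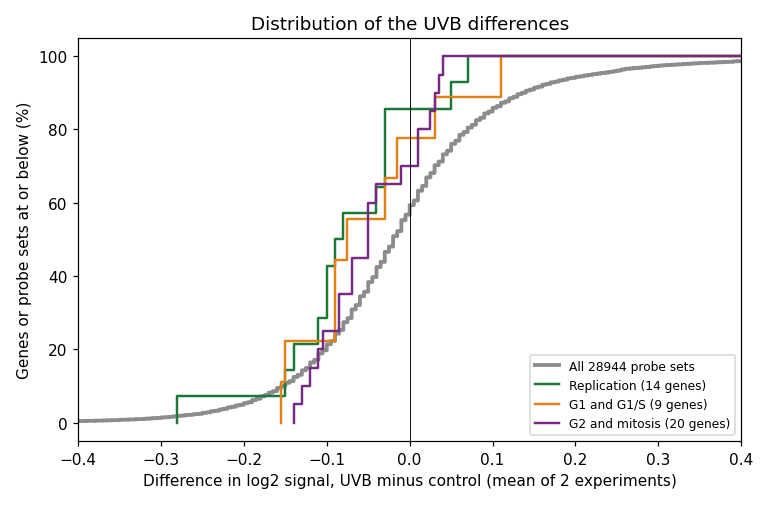
Cumulative distribution of the UVB minus control difference in log2 signal (horizontal axis, mean of 2 experiments), with the percentage of genes or probe sets at or below each value on the vertical axis. Grey is all 28944 probe sets, and green, orange and purple are the replication, G1 and S phase entry, and mitosis genes; the medians are -0.085, -0.075 and -0.050 against -0.020 for all probe sets.

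Other genes of the same processes had median differences of similar size, but more of them lay far from 0. Within 0.2 of 0 were 88.6% of the further replication genes and 87.1% of the further mitosis genes. The shares were 97.7% of the 43 genes and 88.7% of all probe sets. Of 44 further replication genes, 9 passed as lower (20.5%) and 0 as higher, with a median of -0.073. Over all probe sets, 11.0% passed as lower and 6.62% as higher, with a median of -0.020. Rfc3, a subunit of the clamp loader, had 7.84 and 7.83 after UVB, against 8.09 and 8.10 in controls (-0.26, standard error 0.00988, adjusted p = 0.0210). Dbf4, the activator of the Cdc7 kinase that fires origins, was at -0.285 (adjusted p = 0.0238). Rpa3, of the single-strand binding complex, and Timeless, of the fork protection complex, were both at -0.165 (adjusted p = 0.0212 each). Of 62 further mitosis genes, 11 passed as lower (17.7%) and 0 as higher, with a median of -0.057. Cks1b, which binds cyclin-dependent kinases, had 9.16 and 9.17 after UVB, against 9.42 and 9.40 in controls (-0.245, standard error 0.0123, adjusted p = 0.0212). Cenpk, of the inner kinetochore, was at -0.19, Kif22, a chromosome-arm motor, at -0.175 and Mastl, the Greatwall kinase, at -0.13. Of 19 genes of the E2F, Rb and MuvB families, 2 were lower (10.5%) and 1 was higher (5.26%), near the shares of all probe sets. The lower ones were E2f6 at -0.19 and Lin37 at -0.16 (adjusted p = 0.0212 and 0.0215), and the higher one was E2f5 at 0.090 (0.0321). Lin9, of the MuvB core, was at -0.21 and missed the threshold (0.0582). With the block, 0 genes of these lists were called. At an unadjusted p of 0.05 in that limma fit, 8 of the 44 replication, 12 of the 62 mitosis and 3 of the 19 family genes were lower. In these lists 0 were higher, and over all probe sets 7.71% were lower and 5.69% higher.

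The labelled tissue and the markers of other cells were checked beside these values. For the counts that follow, 11.0% of all probe sets were called as lower and 6.62% as higher. Both UVB arrays lay above both control arrays in 24.0% of all probe sets. All 11 measured lens epithelium markers, among them Pax6 and Foxe3, had mean signals above the 75th percentile of the arrays. Their median difference was -0.065, and 3 were called as lower (27.3%). Their summed linear signal was 25700 and 25800 after UVB, against 26900 and 26700 in controls. The 10 lens fiber markers also lay above the 75th percentile, in both groups, although cortex and nucleus had been removed, and 2 of them were called as lower. In all 9 measured photoreceptor markers and all 10 pigment epithelium markers, both UVB arrays lay above both control arrays, and 6 of each list were called as higher. Their median differences were 0.92 and 0.83. The summed signal of the photoreceptor markers was 10300 and 12700 after UVB, against 6750 and 5520 in controls, and that of the pigment epithelium markers 5900 and 5750, against 2400 and 2410. Of these 19 markers, Tyr alone had a mean signal below the 25th percentile. Leukocyte markers summed to 984 and 1060 after UVB, against 838 and 788 in controls, with 3 of 9 called as higher and 1 as lower. The 8 measured markers of cornea and conjunctiva were mixed, with medians of 0.18 in experiment 1 and -0.085 in experiment 2. By mean difference 5 were above 0 and 3 below, and 0 were called as higher and 1 as lower (Aldh3a1, at -0.090). The keratin Krt12 was at 0.86 in experiment 1 and 0.04 in experiment 2, and Krt13 at -0.01 and -0.51. Blood vessel markers summed to 581 and 586 after UVB, against 591 and 587 in controls, with 1 of 6 called as higher and 2 as lower. In tissue RNA, fewer cells of a type and less RNA per cell cannot be told apart. The part of these cell types in the differences of the cell cycle genes was not tested.

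**Figure D4:**
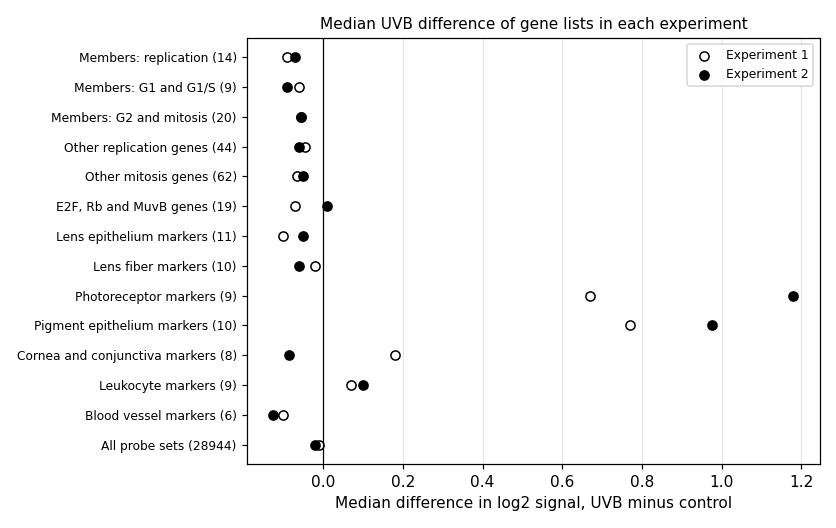
Median difference in log2 signal, UVB minus control (horizontal axis), of gene lists in experiment 1 (open) and experiment 2 (filled), with the number of measured genes or probe sets in brackets. The 3 classes of cell cycle genes lie between -0.090 and -0.055, near the lens epithelium markers at -0.10 and -0.050 and below all probe sets at -0.010 and -0.020, while photoreceptor and pigment epithelium markers lie between 0.67 and 1.18.

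The summed linear signals of the cell cycle genes differed less between groups than the sums of the photoreceptor and pigment epithelium markers. The 14 replication genes summed to 4660 and 4780 after UVB, against 4880 and 4770 in controls, or 0.954-fold and 1.0-fold. Pcna was the brightest of them, and without it, a sum added after seeing the data, the others summed to 3030 and 3050 after UVB, against 3240 and 3220 in controls, or 0.934-fold and 0.950-fold. The 20 mitosis genes summed to 3480 and 3510, against 3630 and 3600, or 0.959-fold and 0.975-fold. The 9 genes of G1 and S phase entry summed to 12300 and 12400, against 12900 and 12800, or 0.950-fold and 0.971-fold. The lens epithelium markers had 0.955-fold and 0.968-fold sums in the same experiments.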

How the data were processed

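Gene expression was measured on 1-colour Affymetrix arrays, 2 of UVB-irradiated and 2 of control lens epithelia. The authors made the deposited log2 values with Affymetrix Expression Console, rounded to 2 decimals; its version and its steps of background correction and summarization were not found in the sources. A human gene array is named in the methods, but the annotation of the deposited probe sets gives mouse symbols. Of 28944 probe sets, 21789 had 1 gene symbol, and only these named a gene. Differences of UVB minus control were tested two-sided over all probe sets (limma 3.58.1, R 4.3.3), with Benjamini-Hochberg adjustment, and only rows of the cell cycle genes and named lists are printed. The fit was tested on simulated data whose arrays varied independently. These lacked the common mean of the experiments, so the test does not bear on the standard errors in the deposited data. The thresholds were an adjusted p of 0.05, or 1.8-fold and an unadjusted p of 0.01.

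The methods do not state a paired test, so the comparison had no block. Because each mouse gave both eyes, the experiment number of the titles, where no number was read as 1, was also used as a block. The deviations from the group means of arrays with one number correlated at -0.998, which the common mean of the experiments forces. That common mean leaves 1 residual degree of freedom, whereas the fit without a block counts 2, so its standard errors are too small. The number of arrays limits precision.

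The genes and lists were chosen with earlier results of these data known, so no test was made over a list. Values on every array are given for called genes, those with the largest differences or gaps between experiments, Mki67, Pcna and Ccnd1, as fixed by rule, and for some others to show overlap. Per pathway list, up to 4 genes with the smallest p and the same sign in both experiments are named. Alternatives were the block, other normalizations, filters and variance models, and leaving out each array.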

Additional observations from a re-analysis of the deposited data

How the results depend on the processing

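The 0 calls at 1.8-fold were also 0 under every alternative, 1.5-fold included. The 8 calls at an adjusted p of 0.05, all lower, became 0 with the replicate block and 0 without any 1 array, where 0 of all probe sets were called too. They numbered between 6 and 9 under the other settings, where between 2169 and 4921 of all probe sets were lower. With 75th percentiles set equal, 1 gene, Ccna2, was higher. Both UVB arrays lay above both controls in 2 genes as deposited (24.0% of all probe sets), 6 with quantile normalization (28.1%), 1 with centring on the median (18.5%) and 7 with 75th percentiles set equal (30.2%). They lay below in 18 (37.4%), 19 (34.6%), 23 (45.0%) and 16 (29.5%), in the same order, so the background moved with the scaling too. These settings were chosen after seeing the data. The medians kept their sign. Centring on the median gave -0.090 for all genes, -0.105 for replication and -0.070 for mitosis. Setting 75th percentiles equal gave -0.050, -0.065 and -0.030. For mitosis, quantile normalization gave -0.062. For all genes, the mean of probe sets gave -0.050, and probe sets above the median level -0.078. Without 1 array, the medians ran from -0.065 to -0.060 for all genes, from -0.092 to -0.058 for replication, from -0.090 to -0.045 for G1 and S phase entry, and from -0.060 to -0.050 for mitosis. The median of all probe sets was -0.020 as deposited, -0.010 with quantile normalization, -0.040 with centring and 0 with equal 75th percentiles.

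Genes whose sign turned were none of the called ones, whose separated groups fix the sign when 1 array is left out. Top2a was at 0.045 with the mean of its probe sets. With 75th percentiles set equal, Ccne1 was at 0.005 and Foxm1 at 0.010. With centring, Cenpe and Cenpf were at -0.010. Without 1 array, Mcm3 ran from -0.065 to 0.005, Ccne1 from -0.060 to 0.030, Bub1b from -0.020 to 0.070, Foxm1 from -0.035 to 0.015, Kif11 from -0.14 to 0.040 and Cenpe from -0.060 to 0.080. With 1 array in a group, its spread is taken from the other group.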
